A study of Homo sapiens with 6 samples.

Results

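Abundant structural and nuclear noncoding RNAs were followed through RNA immunoprecipitation and sequencing (RIP-seq) of the free 40S fraction, in which small ribosomal subunits not joined to large ones sediment. The set was defined by name as 8 genes, RN7SL1, RN7SL2, RN7SK, RPPH1, RMRP, TERC, MALAT1 and NEAT1, and all 8 were found among the 60554 gene IDs of the count files. The material was HCT116, a human colorectal carcinoma cell line that the labels call colon epithelial cells. The 3 groups held 2 libraries each: RNA pulled down with an antibody to LARP1 (LARP1 IP), RNA pulled down with IgG from normal rabbit serum (control IP), and RNA of the fraction taken without a pulldown (Input). No genotype or drug treatment is given for any group. The labels call the replicates biological without naming separate cultures, and p-values reflect only how far these libraries spread. The fit pools that spread over the 3 groups and draws it toward that of other genes. Cell type markers were not analysed here, because the files do not pair their IDs with symbols.

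These RNAs do most of their known work outside translation. 7SL RNA, encoded by RN7SL1 and RN7SL2, is the scaffold of the signal recognition particle, which directs ribosomes making secreted proteins to the endoplasmic reticulum. 7SK RNA (RN7SK) holds the transcription elongation factor P-TEFb inactive in the nucleus and is bound there by LARP7, a relative of LARP1. RPPH1 and RMRP are the RNA subunits of RNase P, which trims tRNA precursors, and of RNase MRP, which cuts the ribosomal RNA precursor. TERC is the template RNA of telomerase. MALAT1 and NEAT1 are long noncoding RNAs of the nucleus, the first found at nuclear speckles and the second the scaffold of paraspeckles. LARP1 itself is best known as a partner of mRNAs whose 5′ end is a terminal oligopyrimidine (TOP) motif, a C followed by a run of pyrimidines. MALAT1 and the RNAs made by RNA polymerase III are not polyadenylated at their mature 3′ ends, and the libraries were made without poly(A) selection.

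A TOP motif is read from the first base of an RNA, so the annotated starts of MALAT1 are shown, with the first 5 bases in capitals. RefSeq start windows were found for 1 of the 8 genes, MALAT1, at 2 starts on the plus strand of chromosome 11 (GRCh38.p14). The first covers chr11:65497738-65497787 and the second chr11:65499045-65499094.
MALAT1 start 1: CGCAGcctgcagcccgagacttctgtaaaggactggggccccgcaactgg
MALAT1 start 2: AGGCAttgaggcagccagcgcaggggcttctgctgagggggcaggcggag
Neither start has a C followed by 4 bases that are each C or T. That pattern, read on the gene's strand from the start base only, was present at 1429 of 35116 RefSeq start windows (4.07%). Which start the RNA in these libraries used was not measured.

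Library totals ran from 4135463 to 8069554 counts. The 2 genes with the most counts, neither of them in the set, took 88.6% and 87.9% of the Input libraries, 70.9% and 71.5% of the control IP and 26.6% and 21.3% of the LARP1 IP. This change in composition moves every share of all counts, so levels are given as CPM, edgeR's counts per 1000000 after TMM scaling, and shares are given with and without those 2 genes. All 6 libraries entered a single fit by edgeR's quasi-likelihood test, in which a gene passed at a Benjamini-Hochberg adjusted p under 0.05 over 10788 genes. A fold change is therefore relative to most other genes, and absolute recovery is unknown.

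Of the 8 RNAs, 5 had at least 1 count and 4 passed the filter on low counts (RN7SK, RN7SL2, MALAT1 and NEAT1). RN7SL1 (ENSG00000276168.1), RPPH1 (ENSG00000259001.3) and RMRP (ENSG00000269900.3) were listed at 0 counts in all 6 libraries. A count of 0 among these totals allows a share of up to 3.72e-05% to 7.25e-05% of a library (3 counts), for counting error only. These zeros are not evidence that the RNAs were absent, since how reads that map to several places or overlap several annotated genes were counted is not given in the sources used here. RN7SL1 (chr14:49586580-49586878) and RN7SL2 (chr14:49862551-49862849) are near-identical copies on chromosome 14 in the RefSeq annotation (GRCh38.p14), each 299 bases long. Counts of either one are therefore uncertain. Of all IDs in the files, 36322 (60.0%) likewise had no count in any library.

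TERC (ENSG00000270141.3, chr3:169764610-169765060), the telomerase RNA, was at the limit of detection and was not tested. It had 3 and 3 counts in the control IP, 7 and 1 in Input and 0 and 0 in the LARP1 IP. The number of counts is too low for a difference between the groups to be read.

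RN7SK (ENSG00000202198.1, chr6:52995620-52995951), a single RNA of 332 bases, made up nearly all of the set. It held between 93.4% and 99.2% of the counts of the 8 RNAs in every library. RN7SK had 35525 and 42306 counts in Input, 132877 and 391770 in the control IP, and 27290 and 20495 in the LARP1 IP. By count it ranked 4 and 3 among all genes in Input and 3 in both control IP libraries, but 36 and 48 in the LARP1 IP. In CPM it stood at 11917 and 13132 in Input, 12276 and 38869 in the control IP, and 2863 and 3812 in the LARP1 IP. Both LARP1 IP libraries lay below all 4 libraries of Input and the control IP, and control IP replicate 2 stood far above the rest.

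**Figure D1:**
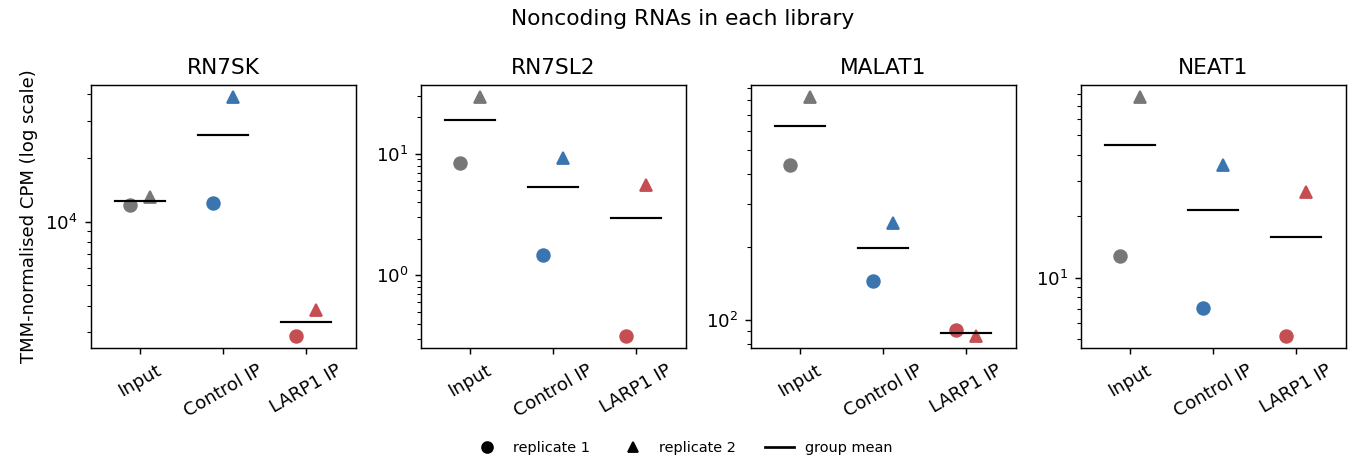
TMM-normalised CPM (log scale) of the 4 tested RNAs in each library, with circles for replicate 1, triangles for replicate 2 and a line at the group mean (n = 2 a group). RN7SK was lowest in the LARP1 IP, at 2863 and 3812 CPM, and MALAT1 was highest in Input and lowest in the LARP1 IP, while NEAT1 and RN7SL2 were higher in replicate 2 of every group.

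RN7SK was lower in the LARP1 IP than in the control IP. Its mean was 3338 ± 671 CPM in the LARP1 IP and 25573 ± 18804 CPM in the control IP (SD, n = 2 each), a log2 fold change of -2.94 ± 0.53 (SE), or 7.66-fold lower (edgeR adjusted p = 0.00348). Only 21 of the 10788 tested genes had a lower log2 fold change. Over 19 alternatives in scaling, tool, filter and libraries, its log2 fold change ran from -4.11 to -1.87, with an adjusted p of at most 0.0403 by edgeR or DESeq2. The size rested on control replicate 2: without it the edgeR log2 fold change was -1.87, and without control replicate 1 it was -3.54.

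Against Input, RN7SK was also lower in the LARP1 IP, though by less and with a weaker test. The Input mean was 12525 ± 859 CPM (SD, n = 2), and the log2 fold change was -1.91 ± 0.51 (SE), or 3.75-fold lower (edgeR adjusted p = 0.0427). With total counts in place of TMM, the log2 fold change was -0.23 (edgeR adjusted p = 0.564), while the median of all genes moved from 0.0328 to 1.75. Relative to that median, RN7SK stood at -1.98 with total counts and -1.94 with TMM. The call was also lost by edgeR without Input replicate 1 (log2 fold change -1.96) or Input replicate 2 (-1.83). In those fits edgeR also lost the calls of all other genes. DESeq2 kept the RN7SK call without Input replicate 1 and lost it without Input replicate 2. Of 19 alternatives, 15 passed.

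The 2 ways of taking a share differ for the LARP1 IP against Input. RN7SK took 0.536% (95% exact Clopper-Pearson interval 0.530% to 0.541%) and 0.658% (0.652% to 0.665%) of all Input counts. In the LARP1 IP it took 0.524% (0.517% to 0.530%) and 0.496% (0.489% to 0.502%). These shares are close, although RN7SK was 3.75-fold lower in CPM. In the control IP the shares were 1.81% (1.797% to 1.816%) and 4.85% (4.84% to 4.87%). These intervals cover counting error only. Of the counts outside the 2 most abundant genes, RN7SK took 4.72% and 5.43% in Input, 6.20% and 17.0% in the control IP, and 0.714% and 0.629% in the LARP1 IP. By this measure both LARP1 IP libraries lay far below the others. Most other genes moved the same way on this scale. The median log2 fold change of all genes in the LARP1 IP was -1.24 against the control IP and -0.92 against Input. Relative to those medians, RN7SK stood at -2.87 and -1.99. Shares are given as values without a test. With groups of 2, the smallest two-sided p of an exact permutation test is 0.333.

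**Figure D2:**
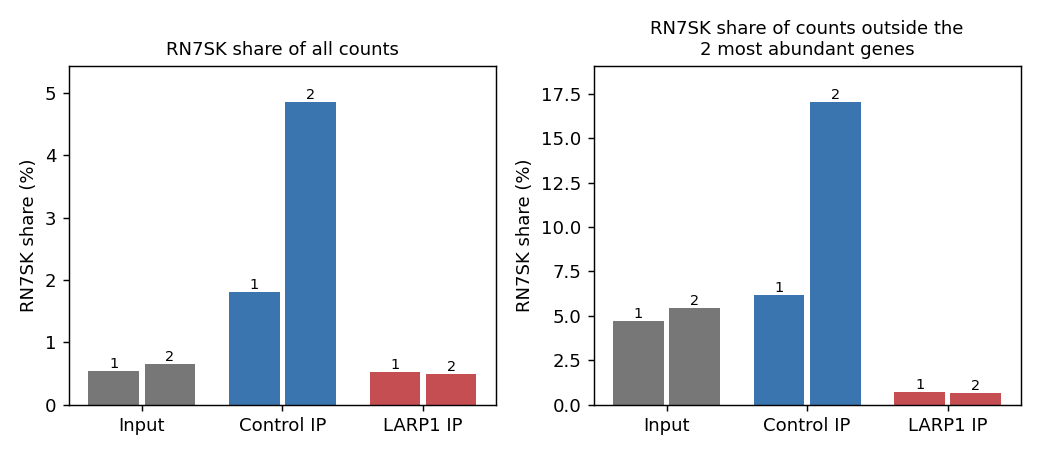
Share of each library's counts assigned to RN7SK, in percent, out of all counts (left) and out of counts outside the 2 most abundant genes (right), with 1 bar per library and the replicate number above it. Against Input, the LARP1 IP bars are near the same height on the left (0.524% and 0.496% against 0.536% and 0.658%) and far lower on the right (0.714% and 0.629% against 4.72% and 5.43%). On the scale of the right panel the median of all genes was also lower (log2 fold change -0.92).

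MALAT1 (ENSG00000251562.7, chr11:65497738-65506516), the speckle RNA, was the next most abundant of the set. It had 1292 and 2665 counts in Input, 1567 and 2526 in the control IP, and 873 and 462 in the LARP1 IP. Its level was 433 and 827 CPM in Input, 145 and 251 CPM in the control IP, and 91.6 and 85.9 CPM in the LARP1 IP. In CPM the 3 groups did not overlap, with Input highest and the LARP1 IP lowest. The share of all genes with this order was not counted. Taken in pairs, such separations were common. The LARP1 IP lay below the control IP for 25.9% of all tested genes and below Input for 22.8%. The control IP lay below Input for 19.3%. As a share of all counts, Input (0.0195% and 0.0415%) and the control IP (0.0213% and 0.0313%) overlapped.

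MALAT1 was lower in the LARP1 IP than in Input, at a mean of 88.8 ± 3.99 CPM against 630 ± 278 CPM (SD, n = 2 each). The log2 fold change was -2.83 ± 0.47 (SE), or 7.10-fold lower (edgeR adjusted p = 0.00273), and 65 of the 10788 tested genes had a lower value. With total counts MALAT1 stood at -1.13 (edgeR adjusted p = 0.0371), against the median of 1.75. Without Input replicate 1 or 2 the log2 fold change was -3.19 or -2.28, with edgeR adjusted p = 0.0648 or 0.0983, in fits where edgeR called 0 of all genes (1872 or 1189 at an unadjusted p under 0.05). DESeq2 without the same libraries kept the call (adjusted p = 3.73e-07 and 0.000889), and 17 of 19 alternatives passed.

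Against the control IP, whose mean was 198 ± 74.8 CPM (SD, n = 2), MALAT1 had a log2 fold change of -1.15 ± 0.44 (SE) and did not pass (edgeR adjusted p = 0.120). Values between -2.30 and -0.69 were obtained over 19 alternatives, of which 3 passed. MALAT1 in the control IP had a log2 fold change of -1.67 ± 0.45 (SE) against Input, which did not pass with edgeR (adjusted p = 0.603) and passed with DESeq2 (-1.71, adjusted p = 0.0167). With total counts this difference was -0.21, against a median of all genes of 1.51.

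NEAT1 (ENSG00000245532.5, chr11:65422798-65445540), the paraspeckle scaffold, ends 52198 bases before the first start of MALAT1. Its short and long isoforms cannot be told apart in counts per gene. NEAT1 had 38 and 249 counts in Input, 77 and 360 in the control IP, and 49 and 142 in the LARP1 IP. In CPM these were 12.7 and 77.3 in Input, 7.11 and 35.7 in the control IP, and 5.14 and 26.4 in the LARP1 IP. The groups overlapped, and the larger value of every pair was replicate 2.

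No comparison of NEAT1 passed with all libraries and TMM. The log2 fold change of the LARP1 IP was -0.46 ± 0.85 against the control IP and -1.54 ± 0.87 against Input (SE; edgeR adjusted p = 0.788 and 0.341). These standard errors leave room for a sizeable difference in either direction against the control IP. Against Input, 2 of 19 alternatives passed, and the values ran from -3.11 to 0.29. Against the control IP, 0 of 19 passed (edgeR or DESeq2 adjusted p of at least 0.113). The sign turned when single libraries were left out. Against the control IP the log2 fold change was 1.09 without control replicate 2, and against Input it was 0.29 without Input replicate 2. Replicate 2 was the higher library of every group, so leaving 1 library out unbalances the replicate numbers between groups. With the replicate number as an added term, the values were -0.45 ± 0.36 against the control IP and -1.45 ± 0.37 against Input (SE). Their edgeR adjusted p was 0.385 and 0.006. The labels do not say that a number marks a shared batch.

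Of the 7SL copies in the set, the only ones looked up, RN7SL2 (ENSG00000274012.1) was the one with counts. It had 25 and 95 counts in Input, 16 and 93 in the control IP, and 3 and 30 in the LARP1 IP. The levels were 8.39 and 29.5 CPM in Input, 1.48 and 9.23 CPM in the control IP, and 0.315 and 5.58 CPM in the LARP1 IP. Both LARP1 IP libraries were below both Input libraries and overlapped the control IP. RN7SL2 had a log2 fold change of -2.81 ± 1.0 (SE) against Input, which did not pass (edgeR adjusted p = 0.126). Of 19 alternatives, 8 passed, and the values ran from -5.88 to -1.28. Against the control IP the value was -0.98 ± 0.98 (SE; edgeR adjusted p = 0.578), and it turned to 0.83 without control replicate 2.

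As a set, 1 of the 4 tested RNAs (RN7SK) was lower in the LARP1 IP than in the control IP and 0 were higher, by edgeR's test. Among all tested genes 2.29% were called lower and 8.54% higher. Against Input, 2 of 4 were lower (RN7SK and MALAT1) and 0 higher, beside 1.52% of all tested genes called lower and 4.63% higher. At an unadjusted p under 0.05, 0 of the 4 were higher in either comparison, and DESeq2 also called 0 higher. All 4 fitted log2 fold changes were negative in both comparisons, with a median of -1.07 against the control IP and -2.36 against Input, beside medians of -0.0649 and 0.0328 over all tested genes. Both comparisons use the same LARP1 IP libraries. For 2 of the 4 both LARP1 IP libraries lay below both control IP libraries, as they did for 25.9% of all tested genes. For 3 of the 4 they lay below both Input libraries, as for 22.8% of all.

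**Figure D3:**
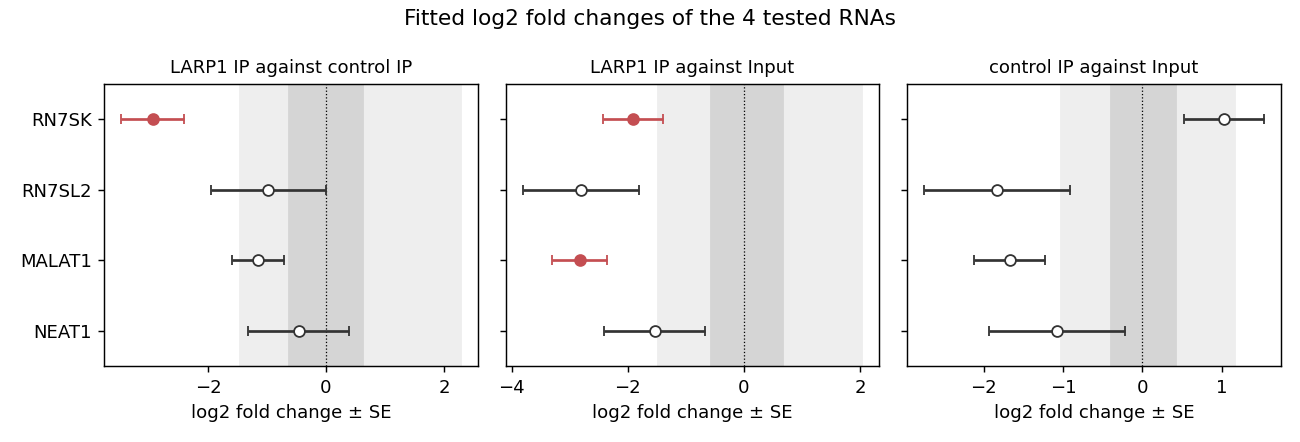
Fitted log2 fold change (points) with its standard error (bars) for the 4 tested RNAs in the 3 comparisons, filled red where the edgeR adjusted p is under 0.05. The dark band holds the middle 50% and the light band the middle 90% of all 10788 tested genes. RN7SK at -2.94 and MALAT1 at -2.83 lie left of the light band in the first and second panels. All 4 RNAs lie left of it in the second, and RN7SL2, MALAT1 and NEAT1 in the third.

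The control IP against Input shows what the control serum recovered. By edgeR 0 of the 4 RNAs passed (1 at an unadjusted p under 0.05), as did 0% of all tested genes (725 of them at an unadjusted p under 0.05). DESeq2 called 1 of the 4, MALAT1, and 38 of all genes. It gave no adjusted p for RN7SL2, so RN7SL2 was not judged by DESeq2 here. RN7SK had a log2 fold change of 1.03 ± 0.50 (SE; edgeR adjusted p = 0.744), in the opposite direction to the other RNAs. It rested on 1 library: without control replicate 2 the value was -0.051. With total counts it was 2.48 (edgeR adjusted p = 0.00992), against a median of all genes of 1.51. RN7SL2, MALAT1 and NEAT1 stood at -1.83 ± 0.92, -1.67 ± 0.45 and -1.08 ± 0.85 (SE). For 1 of the 4, MALAT1, both control IP libraries lay below both Input libraries, as for 19.3% of all tested genes.

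Ratios between RNAs of the same library need no scaling factor. RN7SK had 27.5 and 15.9 counts for each count of MALAT1 in Input, 84.8 and 155 in the control IP, and 31.3 and 44.4 in the LARP1 IP. The 3 groups did not overlap in this ratio, which was highest in the control IP and lowest in Input. How often ratios of other gene pairs separate in this way was not counted. RN7SK had 935 and 170 counts for each count of NEAT1 in Input and 557 and 144 in the LARP1 IP, which overlapped. That ratio was 1726 and 1088 in the control IP. MALAT1 had 34.0 and 10.7 counts for each count of NEAT1 in Input, 20.4 and 7.02 in the control IP, and 17.8 and 3.25 in the LARP1 IP. These ranges overlapped between all groups, and the lower ratio of each pair was that of replicate 2.

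Levels of different RNAs were compared per kilobase of the RefSeq gene span. In Input, RN7SK stood at 37725 ± 2587 CPM per kb, MALAT1 at 71.8 ± 31.7, RN7SL2 at 63.3 ± 49.9 and NEAT1 at 1.98 ± 2.01 (SD, n = 2 each). MALAT1 and RN7SL2 did not differ beyond their spread, and the RN7SL2 value holds only the reads assigned to that copy. In the LARP1 IP the values were 10053 ± 2023 CPM per kb for RN7SK, 10.1 ± 0.454 for MALAT1, 9.86 ± 12.5 for RN7SL2 and 0.694 ± 0.661 for NEAT1. The span of NEAT1 is its whole RefSeq gene, which its shorter isoform does not fill.

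NEAT1 and RN7SL2 were higher in the library numbered 2 than in that numbered 1 of every group. The CPM of NEAT1 in replicate 2 was 6.06 times that in replicate 1 in Input, 5.02 times in the control IP and 5.14 times in the LARP1 IP. For RN7SL2 the same ratios were 3.52, 6.24 and 17.7, the last over only 3 counts in replicate 1. A ratio above 2 in every group was found for these 2 of the 4 RNAs, and for 1.71% of all tested genes. MALAT1 had ratios of 1.91, 1.73 and 0.938, and RN7SK 1.10, 3.17 and 1.33. The labels do not say that a number marks a shared day or batch, and what differs between the libraries was not tested.

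Libraries of like number can be read side by side. Among the libraries numbered 1, NEAT1 stood at 12.7 CPM in Input, 7.11 in the control IP and 5.14 in the LARP1 IP, and among those numbered 2 at 77.3, 35.7 and 26.4. RN7SL2 and MALAT1 had the same order, with Input highest and the LARP1 IP lowest, under either number. RN7SK did not, as its control IP value was the highest under either number. How many of all tested genes have this order was not counted, so it is not a result particular to these RNAs. For NEAT1 and MALAT1 this order depends on the scaling. As a share of all counts NEAT1 was lower in Input (0.000573% and 0.00388%) than in the control IP (0.00105% and 0.00446%) under either number. Against the LARP1 IP (0.000940% and 0.00343%), NEAT1 in Input was lower under number 1 and higher under number 2. MALAT1 was lower in Input (0.0195%) than in the control IP (0.0213%) under number 1. RN7SL2 kept the order as a share of all counts, but on few counts. Under number 2 it had 95 counts in Input and 93 in the control IP, and under number 1 it had 3 in the LARP1 IP. The 95% exact intervals of its shares in Input and the control IP overlapped under either number.

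**Figure D4:**
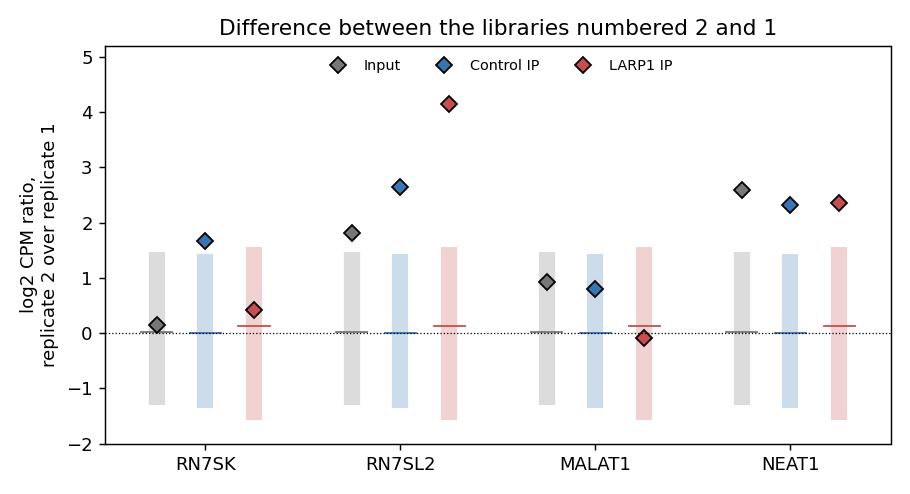
Log2 ratio of CPM in replicate 2 over replicate 1 for the 4 tested RNAs (diamonds) in each group, over pale bars that span the 5th to 95th percentile of all tested genes with a finite ratio and a line at their median. All 3 diamonds of NEAT1 and of RN7SL2 lie above the bars, while those of MALAT1 lie within them.

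The genes whose levels moved most like those of RN7SK and MALAT1 over the 6 libraries were found by Euclidean distance of centred log2 CPM, among genes averaging 10 CPM or more. For RN7SK it was ENSG00000200312.1, at a distance of 0.896 against a median of 3.42 over the 3064 genes compared. Its log2 fold changes in the LARP1 IP were -2.84 against the control IP and -1.55 against Input, beside -2.94 and -1.91 for RN7SK. For MALAT1 it was ENSG00000210194.1, at a distance of 0.707 against a median of 3.37, with log2 fold changes of -1.63 and -2.95 beside -1.15 and -2.83. These genes were picked as the nearest of many in the same 6 libraries, so the likeness is a description. Their IDs were not paired with symbols, and whether ENSG00000200312.1 shares sequence or reads with RN7SK was not tested. The gene nearest to RN7SL2 was NEAT1, at a distance of 1.68.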

How the data were processed

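Raw read counts per gene were deposited by the authors, 1 file for each library, without normalization or pooling. The submitters' processing notes name CASAVA 1.8, TopHat2 2.1.1, Bowtie2, Subread 1.20.6 and featureCounts, and GRCh38 as the build. No source used here gives the annotation release, whether counting used strand, or how reads with several hits were handled, so reads of antisense or overlapping genes cannot be told apart from the RNAs described. Groups came from sample titles.

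The main analysis used edgeR 4.0.16 (R 4.3.3): filterByExpr (minimum count 10; 10788 genes kept, 99.7% to 99.9% of counts), TMM, and 1 quasi-likelihood fit of all 6 libraries with group as the only term (3 residual degrees of freedom). The SE is the log2 fold change divided by the square root of F. DESeq2 1.42.0 was an alternative, and the fit was tested on simulated data. Replicates were not duplicates: within groups, squared count differences averaged 4.79 to 33.4 times those expected from sampling noise (chi-square per degree of freedom).

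The RNAs and planned lists were chosen with earlier results of these data known. The naming rule took all 8 RNAs, their nearest genes (2 IDs printed) and genes of partner lists. Those lists (partner proteins, other noncoding RNAs, cell type markers) were not applied, since no table used here pairs their symbols with Ensembl IDs. Symbols came from the definition of the set, and coordinates and MALAT1 sequences from RefSeq (GRCh38.p14).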

Additional observations from a re-analysis of the deposited data

How the results depend on the processing

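The DESeq2 fits without each library and the test of the replicate number were added after seeing the data. RN7SK against the control IP passed in all 19 alternatives. The number of RNAs lower than the control IP (1) was 2 with total counts that omit the 2 most abundant genes, and 1 to 2 with any library left out, by edgeR or DESeq2. The number lower than Input (2) was 1 with total counts, and 0 to 4 by edgeR and 1 to 3 by DESeq2 with a library left out. It was 0 by edgeR without Input replicate 1 or 2, where 4 and 2 RNAs had an unadjusted p under 0.05. Between the control IP and Input, DESeq2 called 1 lower, total counts 1 higher (RN7SK), and fits without a library 0 to 1 lower. A lone library was assumed to vary like the other groups. The summed share of all counts was 3.36% ± 2.17 (control IP), 0.631% ± 0.106 (Input) and 0.526% ± 0.0215 (LARP1 IP; SD, n = 2), and outside the 2 most abundant genes 11.7%, 5.36% and 0.693%. Single libraries gave 1.83% to 4.89%, 0.556% to 0.705% and 0.511% to 0.541%.

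Of 228 values for single RNAs, 185 kept direction and side of the threshold, 22 newly passed, 6 no longer passed and 15 changed sign, none of these called with all libraries and TMM. With a library left out, RN7SL2 against the control IP ran from -4.00 to 0.83 (above 0 without control replicate 2 or LARP1 replicate 1; DESeq2 0.94 and 0.050), and NEAT1 from -2.05 to 1.09 (0.31 without LARP1 replicate 1; DESeq2 1.11 and 0.29). Against Input, NEAT1 ran from -3.11 to 0.29 for the LARP1 IP and from -2.67 to 0.76 for the control IP (above 0 without Input replicate 2; DESeq2 0.23 and 0.70), the latter at 0.31 with total counts. RN7SK, control IP against Input, ran from -0.051 without control replicate 2 (DESeq2 -0.057) to 1.64. Beyond construction, the cause was not tested.

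Same-numbered libraries deviated together at r = 0.281 (control IP with Input), 0.527 (control with LARP1 IP) and 0.131 (LARP1 IP with Input). With a replicate block, 2 RNAs were lower than the control IP (RN7SK, MALAT1), 4 lower than Input (NEAT1 at -1.45, edgeR adjusted p = 0.006), and 2 lower in the control IP than Input (RN7SL2, MALAT1). The replicate term of that fit called 257 of 10788 genes higher in replicate 2 and 243 lower. It was 2.42 ± 0.30 for NEAT1 and 2.55 ± 0.38 for RN7SL2 (log2, SE), which restates the ratios they were picked on, and RN7SK and MALAT1 did not pass (edgeR adjusted p = 0.281 and 0.342).

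Over all genes, lower and higher calls (247 and 921 against the control IP, 164 and 499 against Input) moved most with total counts (75 lower; 27 and 6550), total counts omitting the 2 genes (3992 and 356; 1122 and 184), the block (909 and 1526; 551 and 1083) and a library left out (65 to 307 and 578 to 977; 0 to 279 and 0 to 723). The 4-library fit gave 80 lower than the control IP and no filter 821 higher than Input. The control IP against Input (0 and 0) gave 6 and 5808 with total counts, 19 and 19 with DESeq2, 35 and 39 with the block and 17 and 56 with no filter. Input had least depth outside those 2 genes (752862 and 778680 counts).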
